A study of Mus musculus with 72 samples.

Results

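Chemokines are small secreted proteins that guide leukocytes, and their receptors are the G protein-coupled receptors through which those cells read the gradient. Described here are 33 chemokine and chemokine receptor genes of 1224 genes measured in 4T1 tumours. They comprise every gene on the panels whose symbol begins with Ccl, Ccr, Cxcl, Cxcr, Cx3c, Xcl, Xcr or Ackr followed by a number or letter, other than Ccl2, Ccl3, Ccl4, Ccl5, Ccl7, Ccr7, Cxcr2 and Cxcl13. Of the 33, 20 encode ligands and 13 encode receptors. Membership follows from gene names, and the gene set was proposed with earlier results of these data known.

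The tumours grew from 4T1, a mouse mammary carcinoma cell line, in 36 female BALB/c mice aged 6 to 12 weeks. Cells were placed in the thigh muscle on day -6, although the labels call the tumours orthotopic, treatment followed on day 0, and tumours were taken at death on day 6. The 4 groups of 9 mice received an isotype antibody (400 µg, control), bintrafusp alfa (492 µg, BA, labelled M7824), radiation with the isotype antibody (RT), or bintrafusp alfa with radiation (BA+RT). BA joins an antibody against PD-L1 to the extracellular domain of a TGF-β receptor, which traps TGF-β. No radiation dose is stated in the labels used. Each mouse supplied 1 tumour, and each tumour RNA was read as counts of amplicons on 2 targeted panels, so replicates are separate animals of 1 cell line.

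Chemokine names follow the spacing of conserved cysteines, and the receptors are promiscuous. CXCL1, CXCL2, CXCL3 and CXCL5 act on CXCR2 and draw neutrophils, and their genes carry NF-κB elements close to the transcription start. CXCL9, CXCL10 and CXCL11 are induced by interferons and act on CXCR3 of activated T cells and NK cells. CXCL12, made by stromal cells, retains CXCR4-bearing leukocytes, and CXCR6 marks tissue-resident and effector lymphocytes. In tumours CCL2-family ligands, CCL12 in mice among them, bring in monocytes through CCR2.

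The promoter windows of 3 neighbouring neutrophil attractants are shown because Cxcl1 and Cxcl3 were called higher after radiation and Cxcl2 was not, a difference between genes that was not tested, while the windows share an element. Each holds the 250 bases before the transcription start, 5′ to 3′ on the gene's strand, from RefSeq on GRCm38.p6, with capitals marking matches to the NF-κB element on either strand. The windows are chr5:90890995-90891244 for Cxcl1, chr5:90903649-90903898 for Cxcl2 and chr5:90785851-90786100 for Cxcl3, all on the plus strand.
Cxcl1: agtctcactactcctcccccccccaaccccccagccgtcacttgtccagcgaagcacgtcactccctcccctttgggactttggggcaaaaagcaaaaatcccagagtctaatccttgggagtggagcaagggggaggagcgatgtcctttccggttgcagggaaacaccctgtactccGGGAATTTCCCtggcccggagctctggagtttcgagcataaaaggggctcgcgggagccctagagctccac
Cxcl2: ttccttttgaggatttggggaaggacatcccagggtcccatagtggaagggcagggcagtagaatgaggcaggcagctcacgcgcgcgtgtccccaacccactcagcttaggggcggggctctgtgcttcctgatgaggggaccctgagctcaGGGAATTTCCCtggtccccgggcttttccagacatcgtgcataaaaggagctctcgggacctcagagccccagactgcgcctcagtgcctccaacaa
Cxcl3: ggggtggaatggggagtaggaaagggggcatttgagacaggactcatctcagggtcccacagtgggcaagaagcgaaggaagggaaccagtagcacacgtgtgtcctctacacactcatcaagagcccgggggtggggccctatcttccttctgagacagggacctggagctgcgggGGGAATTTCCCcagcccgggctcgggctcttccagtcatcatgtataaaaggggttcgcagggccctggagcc
The same 11 letters, GGGAATTTCCC, stood in all 3, beginning 71 bases before the start of Cxcl1, 97 before that of Cxcl2 and 73 before that of Cxcl3. The 11 letters hold 2 overlapping matches of the NF-κB element, 1 on each strand. That element was found in 7.25% of 32851 promoter windows of this length, and the exact letters, looked up after they were seen here, in 14 of them (0.0426%). A match is a run of letters and was not measured as a bound site. Cxcl5 lies beside them on chromosome 5, with its amplicon 26.5 kb from that of Cxcl3.

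The windows of Cxcl9 (chr5:92328080-92328329) and Cxcl10 (chr5:92348890-92349139), both on the minus strand, are shown because, of these neighbouring CXCR3 ligands, Cxcl10 was called after radiation and Cxcl9 was not. Capitals mark the NF-κB element, the interferon-stimulated response element (GAAA, any 2 bases, then GAAA) and the gamma-activated site TTCNNNGAA on either strand.
Cxcl9: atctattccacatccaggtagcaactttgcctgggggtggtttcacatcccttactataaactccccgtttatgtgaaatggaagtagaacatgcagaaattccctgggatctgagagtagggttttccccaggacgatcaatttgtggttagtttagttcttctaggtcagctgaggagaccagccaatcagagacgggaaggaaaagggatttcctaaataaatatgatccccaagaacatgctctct
Cxcl10: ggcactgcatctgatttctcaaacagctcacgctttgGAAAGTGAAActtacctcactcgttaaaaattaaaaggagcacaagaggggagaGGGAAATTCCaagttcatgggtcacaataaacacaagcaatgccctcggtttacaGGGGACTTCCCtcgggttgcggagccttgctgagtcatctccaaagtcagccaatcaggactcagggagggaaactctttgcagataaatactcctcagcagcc
The Cxcl10 window held GAAAGTGAAA beginning 213 bases before the start and NF-κB matches beginning 159 and 104 bases before it, the last being a pair of overlapping matches in 11 letters. None of the 3 elements overlapped another kind. No match to these letters lay in the Cxcl9 window, and nothing follows from that about the factors. The share of all windows was 2.98% for the interferon-stimulated response element and 7.02% for the gamma-activated site. Windows were at hand for 27 of the 33 genes, of which 7 held an NF-κB match, 3 an interferon-stimulated response element and 3 a gamma-activated site.

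The receptors Cxcr4 and Cxcr6 were the genes lower with BA+RT than with RT alone, and the coding stretches counted for them are given as the targets behind those values. Both were cut from GENCODE transcripts on GRCm38, at chr1:128589217-128589311 on the minus strand for Cxcr4 and chr9:123810445-123810539 on the plus strand for Cxcr6.
Cxcr4 amplicon: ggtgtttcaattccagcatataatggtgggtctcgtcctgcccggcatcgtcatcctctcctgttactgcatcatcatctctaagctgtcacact
Cxcr6 amplicon: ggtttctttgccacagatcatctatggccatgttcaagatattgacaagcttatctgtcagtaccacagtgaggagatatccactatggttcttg
All 33 amplicons lay inside the gene named beside them. By position, 15 amplicons were coding, 9 were in the 3′ and 2 in the 5′ untranslated region, and 7 ran across a coding exon and an untranslated region. The sequence of no amplicon was found in a transcript of another gene.

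Panel 1 libraries held 959532 to 2616197 counts and panel 2 libraries 314621 to 841046. The irradiated groups were mostly read more deeply, with overlap. On panel 1 they ran from 1526991 to 2616197 and the others from 959532 to 1956764. On panel 2 the irradiated groups ran from 546144 to 821436 and the others from 314621 to 841046. Values are library-scaled counts (CPM, with TMM factors), and changes are log2 fold changes from edgeR with their standard error (SE). CPM was computed within each panel, so levels of genes on different panels are not on one scale. A gene was called at an adjusted p below 0.05 over all 1038 genes tested. Of the 33 chemokine genes 22 passed the expression filter and were tested, and 11 did not. Epcam, an epithelial marker that 4T1 cells carry, lay between 4172 and 14437 CPM in the 36 tumours. None of the 5 skeletal muscle and 6 dendritic cell markers listed was on the panels. Some tumours stood apart. BA mouse 17 was the lowest of its group in 7 of the 22 tested chemokine genes. Control mouse 8 had the highest Cxcl9, Cxcl10 and Cxcl11 of its group. BA+RT mouse 45 was the highest of its group in 8 of the 22 tested chemokine genes and BA+RT mouse 40 in 9. Chemokine gene results that rest on them are given with and without them. In bulk tumour RNA, fewer cells of a type and less RNA per cell cannot be told apart.

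After radiation most of the called ligands were higher, and every called receptor was lower. Against control tumours, 6 of the 14 tested ligands were higher with RT (Ccl12, Ccl25, Cxcl1, Cxcl3, Cxcl5 and Cxcl10) and 2 were lower (Ccl17 and Cx3cl1), whereas of the 8 tested receptors none was higher and 3 were lower (Ccr2, Ccr9 and Cxcr3). That made 11 of 22 called, 50%, where 41.6% of all tested genes were called. With BA, 3 of 22 were called (Ccr2 higher, Cxcl12 and Cxcr3 lower), 13.6% against a background of 27%. BA+RT against control gave 15 of 22, 68.2% against 47.6%, with 7 ligands higher, 2 ligands lower and 6 receptors lower. All 11 genes called with RT were called in the same direction with BA+RT, comparisons that share the control mice, and Ccl11, Ccr6, Cxcr4 and Cxcr6 were called with BA+RT in addition. The median log2 fold change of the 22 was 0.11 with RT, 0.01 with BA and -0.05 with BA+RT, beside -0.01, 0.00 and 0.01 for all tested genes.

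**Figure D1:**
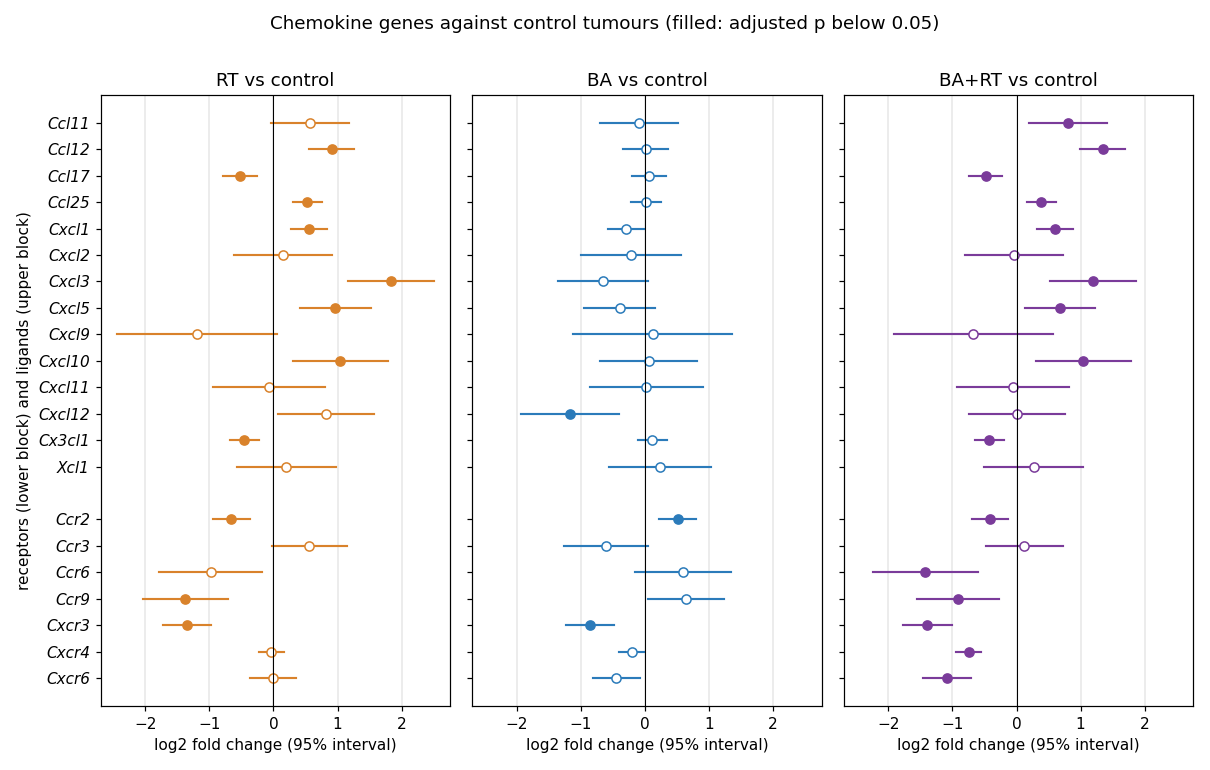
Log2 fold change (x axis) of the tested chemokine genes reported by name (y axis) in RT, BA and BA+RT tumours against control, 9 mice a group. Points are estimates, lines 95% intervals, and filled points passed an adjusted p of 0.05. Filled receptor points lie left of 0 in the RT and BA+RT panels, and with BA the filled point of Ccr2 lies right of 0 and that of Cxcr3 left of it.

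Adding BA to RT changed 2 of the 22, Cxcr4 and Cxcr6, both lower, which is 9.09% against 10.8% of all tested genes. Adding RT to BA changed 16, with 8 ligands higher, 2 ligands lower and 6 receptors lower, 72.7% against 53.5%. The interaction, which compares the BA effect with and without irradiation, called 1 of 22, Cxcr4, 4.55% against 8.29%. The direction of these splits depended partly on scaling. Factors from the 9 reference genes of each panel put the all-gene median log2 fold change at 0.19 with RT, 0.14 with BA+RT and 0.20 for BA+RT against BA. The all-gene split for RT then went from 213 higher and 219 lower to 422 and 79, for BA from 130 and 150 to 99 and 183, for BA+RT from 243 and 251 to 387 and 157, for BA+RT against BA from 281 and 274 to 472 and 147, and for BA+RT against RT from 38 and 74 to 19 and 96. The chemokine split became 8 higher and 4 lower with RT and 7 higher and 6 lower with BA+RT, and the calls this scaling ended or added are named with each gene.

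Of the 4 neutrophil attractants on chromosome 5, Cxcl3, Cxcl5 and Cxcl1 were higher in irradiated tumours and Cxcl2 was not called. Cxcl3 ranged from 8.29 through a median of 23.5 to 49.4 CPM in control tumours, from 4.22 through 12.97 to 43.1 with BA, from 54.6 through 96.3 to 189.6 with RT and from 34.8 through 55.0 to 139 with BA+RT. Every RT tumour lay above every control tumour. The group means were 28.4 ± 13.7, 17.9 ± 12.8, 101 ± 40.97 and 64.5 ± 33.3 (SD, n = 9 each). Cxcl3 rose by a log2 fold change of 1.84 with RT (SE 0.34, 3.57-fold, adjusted p = 5.28e-05) and by 1.19 with BA+RT (SE 0.34, adjusted p = 0.0045). RT added to BA gave 1.84 (SE 0.35, adjusted p = 5.70e-05), while BA alone gave -0.65 (SE 0.36, adjusted p = 0.184) and was not called. Its amplicon lies in the 3′ untranslated region, at chr5:90787606-90787700.

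Cxcl5, whose product is also made by epithelial cells, spanned 54.2 to 163 CPM (median 89.3) in control tumours, 49.8 to 92.8 (66.7) with BA, 74.6 to 278 (201) with RT and 68.1 to 428 (121) with BA+RT. RT and control tumours overlapped, with 6 of 9 RT tumours above all controls. The means were 93.8 ± 36.7, 71.2 ± 13.6, 183 ± 65.8 and 149.6 ± 110 CPM (SD, n = 9 each). The log2 fold change was 0.97 with RT (SE 0.28, adjusted p = 0.0053), 0.68 with BA+RT (SE 0.28, adjusted p = 0.0442) and 1.07 for BA+RT against BA (SE 0.28, adjusted p = 0.0018). The BA+RT value rested on mouse 45, at 428 CPM: without it the change was 0.28 (adjusted p = 0.319), and the difference from RT became -0.66 (adjusted p = 0.0464). Leaving out control mouse 1, 2, 4, 5, 8 or 9, RT mouse 19, 21 or 26, or BA+RT mouse 42 or 43 also ended the BA+RT call, with adjusted p from 0.0501. Scaling by total counts (adjusted p = 0.0532), a fit of only the groups compared (0.0983) and limma on the deposited rlog values (0.106) ended it as well.

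Cxcl1, a neutrophil attractant induced by inflammatory cytokines, ranged from 275 through a median of 352 to 543 CPM in control tumours, from 210.5 through 295 to 375 with BA, from 388 through 500.03 to 728 with RT and from 390.1 through 534 to 756 with BA+RT. All BA+RT tumours lay above all BA tumours, and all RT tumours above the control median. Its log2 fold change was 0.55 with RT (SE 0.14, adjusted p = 0.0022), 0.60 with BA+RT (SE 0.14, adjusted p = 0.00087) and 0.89 for BA+RT against BA (SE 0.14, adjusted p = 4.37e-06). Cxcl2, from the adjacent gene with the same 11 letters in its promoter window, had medians of 95.2, 60.2, 74.6 and 72.4 CPM, in the same order of groups. Its log2 fold change with RT was 0.15, with a 95% interval from -0.62 to 0.92 that holds the value found for Cxcl1. Between the lowest and highest RT tumour Cxcl2 spanned 48.1 to 322 CPM. RT mouse 22 was the highest of its group in Cxcl1, Cxcl2 and Cxcl3, and BA+RT mouse 45 in those 3 and in Cxcl5.

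**Figure D2:**
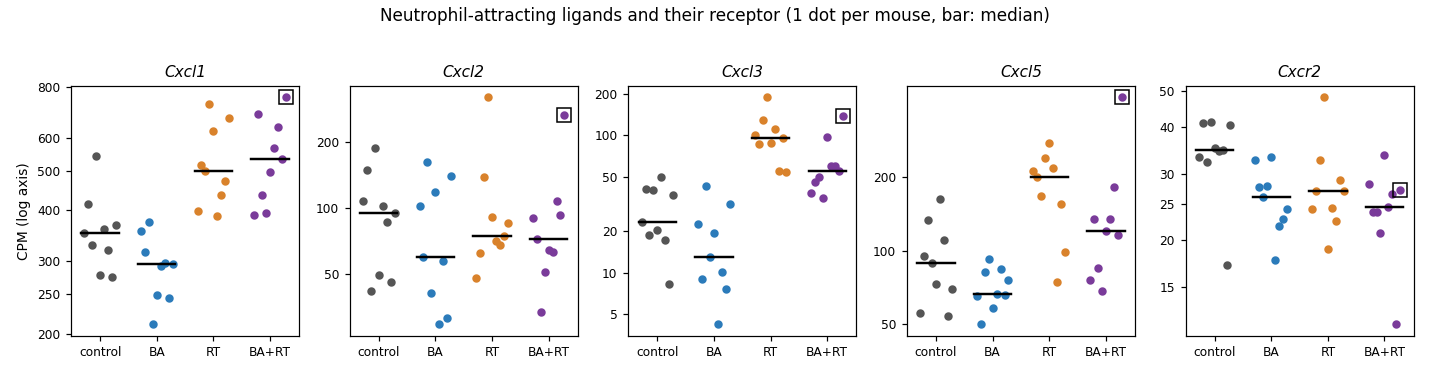
CPM on a log axis of Cxcl1, Cxcl2, Cxcl3, Cxcl5 and their receptor Cxcr2 in control, BA, RT and BA+RT tumours, 1 dot per mouse with the median as a bar; a square marks BA+RT mouse 45. For Cxcl3 all RT dots lie above the highest control dot, at 49.4 CPM, while Cxcl2 overlaps throughout.

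Cxcr2, the receptor of these ligands on neutrophils, was not called higher in any comparison. It ranged from 17.2 through a median of 34.9 to 41.3 CPM in control tumours, from 17.7 through 26.04 to 33.4 with BA, from 18.97 through 27.1 to 48.1 with RT and from 12.0 through 24.5 to 33.7 with BA+RT. It was called lower with BA+RT (log2 fold change -0.49, SE 0.17, adjusted p = 0.0171) and not with RT (-0.29, SE 0.17, adjusted p = 0.178). Of 8 neutrophil markers listed 5 were measured and 4 tested, and with RT 1 was higher (Fpr1) and none lower. With BA+RT against control, where Cxcr2 was called lower, Csf3r and S100a8 were lower and Fpr1 and Fpr2 higher. The summed level of the 5, of which S100a8 alone had a control median of 2410.4 CPM, had a median of 2807 CPM in control tumours (1818 to 4730.2), 2013 with BA (1673 to 6518), 1713 with RT (1352 to 5148) and 1468 with BA+RT (1231 to 3722). S100a8, not called with RT, was read on panel 2 and the others on panel 1, so the sum mixes both scales and gives S100a8 more weight. The part of these cells in the ligand values was not tested.

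Of the 3 CXCR3 ligands Cxcl10 was called higher after radiation, and Cxcr3 itself fell with each treatment. Cxcl10, an interferon-inducible attractant of T cells, ranged from 7.53 through a median of 17.4 to 90.0 CPM in control tumours, from 1.26 through 27.9 to 57.8 with BA, from 41.6 through 57.4 to 68.0 with RT and from 35.3 through 53.8 to 87.4 with BA+RT. All irradiated tumours lay above the control median, but control mouse 8, at 90.0 CPM, lay above them all. The means were 27.03 ± 26.5, 28.1 ± 16.1, 55.5 ± 10.2 and 55.3 ± 17.5 CPM (SD, n = 9 each). Cxcl10 rose by a log2 fold change of 1.04 with RT (SE 0.38, adjusted p = 0.0255), by 1.04 with BA+RT (SE 0.38, adjusted p = 0.0232) and by 0.98 for BA+RT against BA (SE 0.38, adjusted p = 0.029). Without control mouse 8 the first 2 became 1.54 (adjusted p = 0.00046) and 1.54 (adjusted p = 0.00038). The RT call ended without control mouse 1, 3, 4 or 7 (0.90 to 0.96, adjusted p 0.0503 to 0.0578), the BA+RT call without control mouse 4 (0.92, adjusted p = 0.0512), and that against BA without BA mouse 11 or 14 or BA+RT mouse 45 (0.87 to 0.91, adjusted p 0.0518 to 0.0569).

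Cxcl9 and Cxcl11, also induced by interferon-gamma, were called in no comparison of all 36 tumours. Cxcl9 ranged from 79.0 through a median of 164 to 3060.4 CPM in control tumours, from 27.2 through 455 to 1596 with BA, from 102 through 196 to 511 with RT and from 115 through 222 to 1118 with BA+RT. The highest control value was that of mouse 8, and the BA median was the highest of the 4 medians. With all mice the change with BA was 0.12 (SE 0.63, adjusted p = 0.907) and with RT -1.19 (SE 0.64, adjusted p = 0.138). Without control mouse 8 the BA value became 1.39 (adjusted p = 0.0471), which passed, and the RT value became 0.07 (adjusted p = 0.936), so its sign rested on that mouse. Leaving out BA+RT mouse 40 as well, a choice made after seeing the data, gave -1.29 for BA+RT against BA (adjusted p = 0.031). Cxcl11 had medians of 97.2, 186, 205 and 176 CPM and spanned 55.2 to 1006 CPM in control tumours. Its change with RT was -0.07 (95% interval -0.94 to 0.81) and 0.71 without control mouse 8 (adjusted p = 0.121). BA mouse 17 was the lowest of its group, and control mouse 8 the highest of its own, in all 3 ligands.

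Cxcr3, the receptor on activated T cells and NK cells, was the one of the 22 genes that fell in all 3 treated groups. It spanned 163 to 234 CPM (median 211) in control tumours, 63.0 to 169 (114) with BA, 44.6 to 130.5 (74.1) with RT and 48.2 to 117 (70.3) with BA+RT. Every RT and every BA+RT tumour lay below every control tumour, and so did 8 of 9 BA tumours. The means were 203 ± 25.5, 113 ± 36.1, 80.2 ± 28.0 and 77.5 ± 23.5 CPM (SD, n = 9 each). The log2 fold change was -0.85 with BA (SE 0.19, adjusted p = 0.00085), -1.34 with RT (SE 0.19, adjusted p = 7.98e-07) and -1.39 with BA+RT (SE 0.19, adjusted p = 3.76e-07). RT added to BA gave -0.54 (SE 0.19, adjusted p = 0.0186), a call that reference-gene factors ended (-0.36, adjusted p = 0.078), and BA added to RT gave -0.05 (95% interval -0.42 to 0.33). The interaction was 0.81 (SE 0.27, adjusted p = 0.055) and not called. It passed when any of 13 single mice was left out (control 1 or 3, BA 10, 13, 15 or 18, RT 19, 21 or 22, BA+RT 40, 42, 43 or 45; 0.84 to 0.93, adjusted p 0.0191 to 0.0489) and under 6 of the other alternatives. The amplicon lies in the 3′ untranslated region at chrX:101731782-101731875, on the minus strand.

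**Figure D3:**
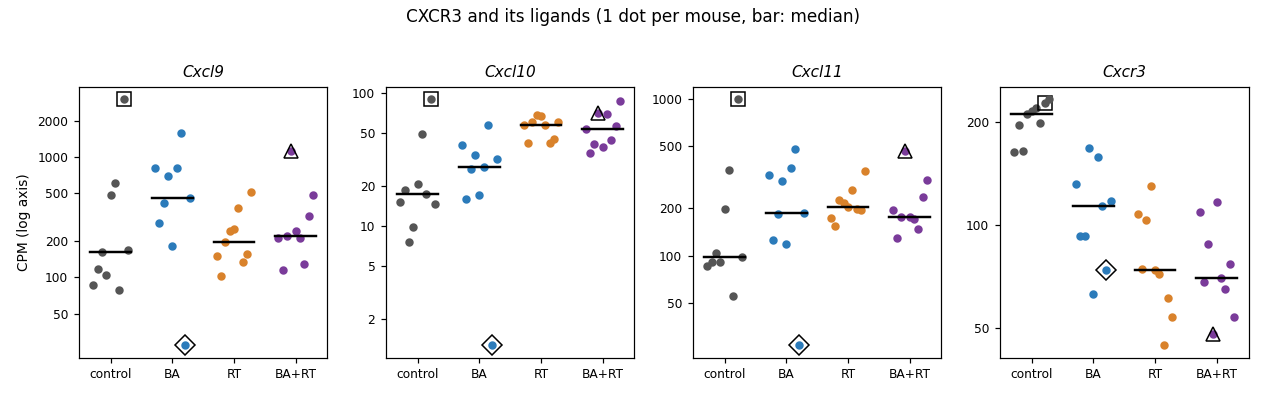
CPM on a log axis of Cxcl9, Cxcl10, Cxcl11 and Cxcr3 in control, BA, RT and BA+RT tumours, 1 dot per mouse with the median as a bar; the square marks control mouse 8, the diamond BA mouse 17 and the triangle BA+RT mouse 40. Control mouse 8 is at the top of all 3 ligand panels (3060.4 CPM for Cxcl9), and no RT or BA+RT dot reaches the lowest control dot of Cxcr3, at 163 CPM.

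Markers of the cells that carry CXCR3 were mostly called in the other direction with BA and in the same direction when RT was added to BA. Of 9 tested T cell markers, from a list of 11, 4 were higher with BA (Cd2, Cd28, Cd3g, Cd5) and none lower, and of 8 tested NK and cytotoxic markers, from a list of 9, 6 were higher (Gzma, Gzmb, Klrd1, Ncr1, Nkg7, Prf1) and 1 lower (Eomes). With RT 2 T cell markers were lower (Cd2, Cd5) and none of the NK and cytotoxic markers was called. BA+RT against control had 3 T cell markers lower (Cd2, Cd4, Cd5) and none higher, and 2 NK and cytotoxic markers higher (Gzmb, Prf1). Mouse 40 was the highest BA+RT tumour in Gzmb and Prf1, and calls of these markers without it are not given. For BA+RT against BA, 8 of 9 T cell markers were lower and none higher, and 5 of 8 NK and cytotoxic markers were lower and 1 higher (Eomes). The summed T cell level had medians of 48.5 CPM in control tumours (36.96 to 193), 159 with BA (83.4 to 359.5), 25.1 with RT (12.7 to 162) and 42.1 with BA+RT (29.8 to 128). The summed NK and cytotoxic level had medians of 198 (134 to 507), 759.5 (522 to 1498), 197 (174 to 283) and 319 (236 to 1432) CPM. No marker of either list was at 0 in every library of a group. Cxcr3 was lower than in control tumours in the group in which both sums were highest, and the part of these cells in the Cxcr3 values was not tested.

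Cxcr4 and Cxcr6 were lower when BA and radiation were given together. Cxcr4, the CXCL12 receptor, ranged from 352 through a median of 497 to 649.6 CPM in control tumours, from 347 through 429.85 to 531 with BA, from 440.3 through 495 to 579 with RT and from 239.8 through 306 to 366 with BA+RT. Every BA+RT tumour lay below every RT tumour. The means were 509 ± 89.6, 443 ± 66.5, 498 ± 51.2 and 304 ± 48.2 CPM (SD, n = 9 each). Cxcr4 fell with BA+RT by 0.74 on the log2 scale against control (SE 0.10, adjusted p = 2.41e-07), by 0.71 against RT (SE 0.10, adjusted p = 5.62e-06) and by 0.54 against BA (SE 0.10, adjusted p = 4.50e-05). RT alone gave -0.03 (95% interval -0.23 to 0.16) and BA alone -0.21 (95% interval -0.40 to -0.01, adjusted p = 0.131), a value that was called without control mouse 6 (-0.26, adjusted p = 0.0394) and with reference-gene factors (-0.31, adjusted p = 0.019). The interaction was -0.50 (SE 0.14, adjusted p = 0.02), so the change with BA was larger in irradiated tumours by that amount. Of 6 macrophage and monocyte markers tested, Cd14, Cd68 and Msr1 were lower with BA+RT than with RT, and the same 3 were called negative in the interaction, with none called positive in either. In the other cell type lists, Gzma, Gzmb, Nkg7, Prf1 and Il2ra were higher with BA+RT than with RT, and Kdr, Fap and Cspg4 lower. The interaction called Fpr1, Fpr2 and Foxp3 negative and Eomes positive. The part of any of these cells in the Cxcr4 values was not tested.

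Cxcr6, a receptor of effector and resident lymphocytes, ranged from 24.7 through a median of 28.1 to 42.9 CPM in control tumours, from 14.1 through 21.2 to 39.9 with BA, from 24.3 through 29.1 to 39.5 with RT and from 7.46 through 13.8 to 20.6 with BA+RT. The BA+RT tumours lay wholly below the control and the RT tumours. Means were 31.0 ± 6.37, 22.9 ± 8.99, 30.8 ± 4.74 and 14.6 ± 4.51 CPM (SD, n = 9 each). With BA+RT Cxcr6 fell by 1.08 against control (SE 0.19, adjusted p = 1.85e-05), by 1.08 against RT (SE 0.19, adjusted p = 0.00018) and by 0.64 against BA (SE 0.19, adjusted p = 0.0058), the last not called with reference-gene factors (-0.44, adjusted p = 0.0605). RT alone gave -0.01 (95% interval -0.37 to 0.35) and BA alone -0.44 (SE 0.19, adjusted p = 0.078). The BA value was called without BA mouse 11 or 13 (-0.53 and -0.58, adjusted p 0.0177 to 0.0403), with DESeq2 (-0.47, adjusted p = 0.0482) and with limma on the rlog values (-0.22, adjusted p = 0.0286). The interaction, -0.63 (SE 0.27, adjusted p = 0.147), was not called. Cxcl16, the ligand of CXCR6, was not on the panels. None of the 9 T cell markers was called between BA+RT and RT, and 4 of 8 NK and cytotoxic markers were higher with BA+RT (Gzma, Gzmb, Nkg7, Prf1). BA+RT mouse 40 was the highest of its group in all 4, at 579 CPM for Gzmb (next 117) and 107.8 for Prf1 (next 20.5). The BA+RT medians of Gzmb and Prf1 were 76.6 and 17.2 CPM, beside 28.7 and 3.10 with RT. Calls of these markers without mouse 40 are not given here. Against BA, where Cxcr6 also fell, 8 of 9 T cell markers and 5 of 8 NK and cytotoxic markers were lower. The part of these cells in the Cxcr6 values was not tested.

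Cxcl12, the stromal ligand of CXCR4, followed another pattern. It spanned 97.3 to 505 CPM (median 249.5) in control tumours, 51.3 to 206 (109.7) with BA, 157 to 962 (528) with RT and 96.4 to 689.7 (208) with BA+RT. The groups overlapped, with all BA tumours below the control median. The means were 266 ± 151, 118 ± 46.2, 468 ± 259 and 267 ± 198 CPM (SD, n = 9 each). Cxcl12 fell by 1.17 on the log2 scale with BA (SE 0.39, adjusted p = 0.0243) and rose by 1.18 when RT was added to BA (SE 0.39, adjusted p = 0.0119). Without control mouse 3 or 6 the BA value was -1.001 to -1.004 and missed the threshold (adjusted p 0.0567 to 0.0613), and without BA+RT mouse 45 the second was 0.86 (adjusted p = 0.0536). RT alone gave 0.82 (SE 0.38, adjusted p = 0.084), which was called without control mouse 3 or 6 (0.97 and 0.99, adjusted p 0.0379 to 0.0481) and with reference-gene factors (1.01, adjusted p = 0.0378). BA+RT against RT gave -0.81 (SE 0.38, adjusted p = 0.179) and -1.11 without BA+RT mouse 45 (adjusted p = 0.0382). Its amplicon joins 2 coding exons, between chr6:117171558 and 117173545.

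All 4 fibroblast and pericyte markers tested, of 5 listed (Acta2, Cspg4, Fap, Pdgfrb) were lower with BA and with BA+RT, and 2 (Fap, Pdgfrb) were lower with RT. Their summed level had medians of 1797 CPM in control tumours (1459 to 2409), 1039 with BA (734 to 1231), 1483 with RT (873 to 1683) and 1001 with BA+RT (754 to 1323). Acta2 was read on panel 2 and the others on panel 1, so the sum mixes both scales and gives Acta2 more weight. From control to RT the medians went from 647 to 600 CPM for Acta2 and from 631 to 417 for Pdgfrb. They went from 396 to 288 for Fap and from 179 to 161 for Cspg4. Cxcl12 and this sum were both lower with BA than in control tumours, while the BA+RT tumours had the lowest sum and a Cxcl12 mean equal to control within its spread (log2 fold change 0.01, 95% interval -0.74 to 0.75). The part of these cells in the Cxcl12 values was not tested.

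**Figure D4:**
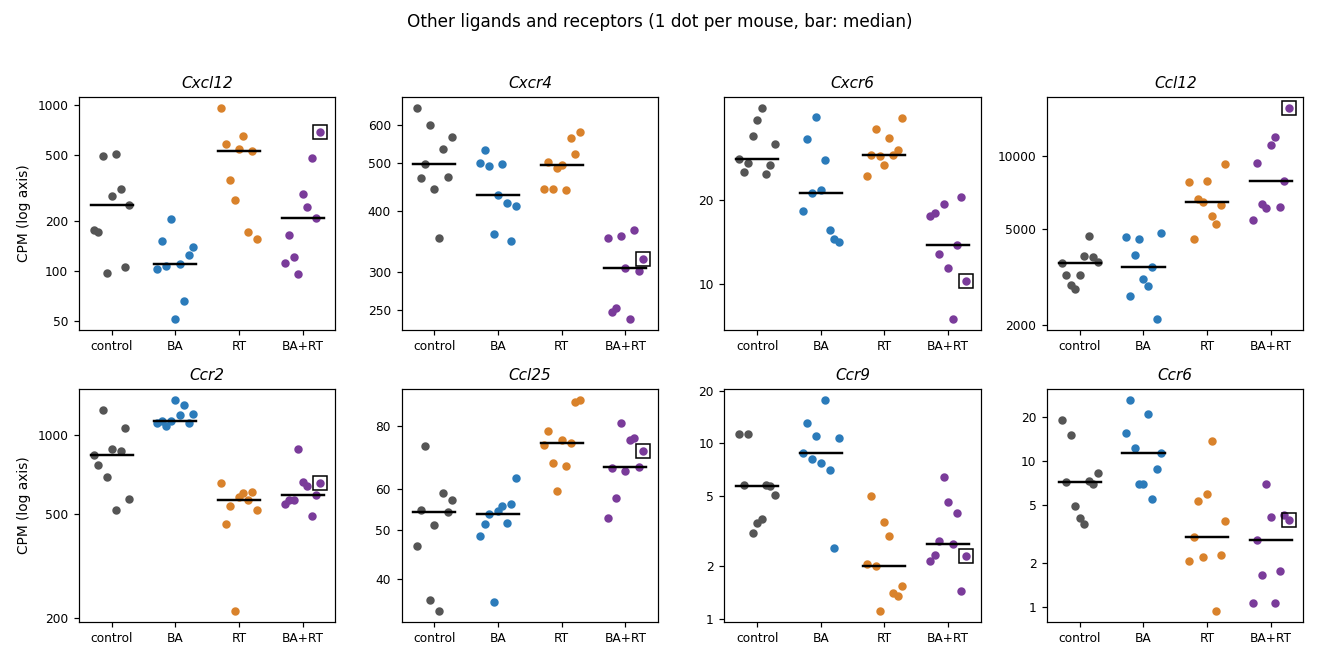
CPM on a log axis of Cxcl12 with its receptor Cxcr4, of Cxcr6, of Ccl12 with Ccr2, of Ccl25 with Ccr9, and of Ccr6, in control, BA, RT and BA+RT tumours, 1 dot per mouse with the median as a bar; a square marks BA+RT mouse 45. BA+RT dots of Cxcr4 (239.8 to 366 CPM) lie below all RT dots, Ccl12 and Ccl25 are higher in the irradiated groups, and Ccr2, Ccr9 and Ccr6 have their highest medians with BA.

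The monocyte attractant Ccl12 rose with radiation while Ccr2, its receptor, fell. Ccl12 ranged from 2807 through a median of 3609 to 4672 CPM in control tumours, from 2106 through 3481 to 4785 with BA, from 4546 through 6440 to 9264 with RT and from 5454 through 7930 to 15934 with BA+RT. All BA+RT tumours lay above all control and all BA tumours, and 8 of 9 RT tumours above all controls. The means were 3528 ± 570, 3560 ± 956, 6644 ± 1474 and 8946 ± 3525 CPM (SD, n = 9 each). The log2 fold change was 0.91 with RT (SE 0.18, adjusted p = 9.28e-05), 1.34 with BA+RT (SE 0.18, adjusted p = 2.34e-07) and 1.33 for BA+RT against BA (SE 0.18, adjusted p = 2.79e-07). Without BA+RT mouse 45 the second was 1.20 (adjusted p = 4.56e-07). BA alone gave 0.01 (95% interval -0.34 to 0.36). BA+RT exceeded RT by 0.43 (SE 0.18, adjusted p = 0.117), which was not called. The amplicon, at chr11:82103153-82103246, spans the end of the coding sequence and the 3′ untranslated region.

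Ccr2, the receptor by which monocytes leave the marrow and enter tissue, ranged from 519 through a median of 838 to 1244 CPM in control tumours, from 1079 through 1131 to 1360.2 with BA, from 213 through 562 to 655 with RT and from 492 through 591 to 879.7 with BA+RT. BA tumours formed a narrow band above the control median, and every BA+RT tumour lay below every BA tumour. Ccr2 rose by 0.51 with BA (SE 0.15, adjusted p = 0.0085) and fell by 0.66 with RT (SE 0.15, adjusted p = 0.00046), by 0.41 with BA+RT (SE 0.15, adjusted p = 0.0189) and by 0.92 when RT was added to BA (SE 0.15, adjusted p = 3.18e-06). Without control mouse 3 the BA+RT change was -0.32 (adjusted p = 0.0608). The gene was on both panels, and its log2 CPM correlated between them with a Pearson r of 0.98 over the 36 mice, a description of the same RNA read in separate libraries. Of 6 macrophage and monocyte markers tested, from a list of 7, 3 were higher with RT (Adgre1, Cd68, Msr1) and 1 lower (Csf1r), and with BA 2 were higher (Csf1r, Msr1) and 1 lower (Adgre1). Their summed level had medians of 3853 CPM in control tumours (3589 to 4346), 4400.5 with BA (3932 to 4715), 4409 with RT (3416 to 4861) and 3812 with BA+RT (3448 to 4192), and the part of these cells in the Ccr2 and Ccl12 values was not tested.

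Ccl11, the eosinophil attractant eotaxin, lies 40.9 kb from Ccl12 between the amplicons. Its medians were 225 CPM in control tumours (131 to 372), 218 with BA (117 to 386), 383 with RT (179.6 to 483) and 307 with BA+RT (156 to 1278). The groups overlapped, and the highest BA+RT value was that of mouse 45. It was called with BA+RT (log2 fold change 0.80, SE 0.31, adjusted p = 0.0325) and for BA+RT against BA (0.89, SE 0.31, adjusted p = 0.0161), but without mouse 45 these were 0.35 (adjusted p = 0.261) and 0.45 (adjusted p = 0.142). The first call also ended without control mouse 1, 2, 4 or 9 or BA+RT mouse 42 (adjusted p from 0.0512), and both ended in fits of only the groups compared (adjusted p = 0.0639 and 0.0507). Limma on the rlog values ended the first (0.39, adjusted p = 0.083). Its receptor Ccr3 was called in no comparison, with medians of 5.76, 3.99, 8.02 and 5.33 CPM from at most 36 counts a library. For BA+RT against BA its change was 0.73 (SE 0.33, adjusted p = 0.0563), which passed without BA mouse 12 or 18, RT mouse 19 or BA+RT mouse 40 (0.72 to 0.92, adjusted p 0.0215 to 0.0436). With reference-gene factors it passed there (0.92, adjusted p = 0.0183) and with RT (0.78, adjusted p = 0.0348). The eosinophil marker Siglecf, the 1 tested of 2 measured and 3 listed, was lower with RT, with BA+RT and for BA+RT against BA (-1.01). Its part was not tested.

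Ccl25 and its receptor Ccr9, best known from thymus and gut, moved in opposite directions. Ccl25 medians were 54.2 CPM in control tumours (34.5 to 73.0), 53.7 with BA (35.9 to 63.2), 74.1 with RT (59.7 to 90.2) and 66.5 with BA+RT (52.7 to 81.0). It rose by 0.53 with RT (SE 0.12, adjusted p = 0.00046) and by 0.39 with BA+RT (SE 0.12, adjusted p = 0.0069). RT added to BA gave 0.38 (SE 0.12, adjusted p = 0.0080). Ccr9 was scarce, with at most 21 counts in a library. Its values ran from 3.08 through a median of 5.74 to 11.4 CPM in control tumours, from 2.53 through 8.85 to 17.7 with BA, from 1.11 through 2.01 to 5.02 with RT and from 1.43 through 2.66 to 6.46 with BA+RT. All RT tumours lay below the control median, and 7 of 9 below all controls. The means were 6.16 ± 3.12, 9.65 ± 4.25, 2.34 ± 1.29 and 3.19 ± 1.57 CPM (SD, n = 9 each).

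Ccr9 fell by 1.37 on the log2 scale with RT (SE 0.34, adjusted p = 0.0013), by 0.91 with BA+RT (SE 0.33, adjusted p = 0.0207) and by 1.56 when RT was added to BA (SE 0.32, adjusted p = 0.00011). The BA+RT call ended without control mouse 1 or 3 (-0.77 and -0.78, adjusted p 0.0514 to 0.0553) and with reference-gene factors (-0.74, adjusted p = 0.0596). BA alone gave 0.65 (SE 0.30, adjusted p = 0.113), called without BA mouse 17 (0.78, adjusted p = 0.0412). The Ccr9 amplicon lies in a coding exon at chr9:123780121-123780216, 30.3 kb from that of Cxcr6, for which RT gave -0.01.

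Ccr6, a receptor of B cells, Th17 cells and some dendritic cells, ranged from 3.73 through a median of 7.20 to 18.98 CPM in control tumours, from 5.47 through 11.3 to 26.3 with BA, from 0.94 through 3.01 to 13.7 with RT and from 1.06 through 2.90 to 6.96 with BA+RT. All BA+RT tumours lay below the control median, and 8 of 9 below all BA tumours. The means were 8.50 ± 5.16, 12.7 ± 7.05, 4.37 ± 3.85 and 3.09 ± 1.95 CPM (SD, n = 9 each), from at most 38 counts a library. It fell by 1.42 with BA+RT (SE 0.42, adjusted p = 0.0057) and by 2.02 when RT was added to BA (SE 0.41, adjusted p = 0.00012). RT alone gave -0.98 (SE 0.41, adjusted p = 0.0516), and RT mouse 24, at 13.7 CPM, lay far above the rest of its group: without it the value was -1.43 (adjusted p = 0.0038). The RT value also passed without control mouse 4, 5, 6 or 8, BA mouse 11, 16 or 18, or BA+RT mouse 37, 40, 42, 43, 44 or 45 (adjusted p up to 0.0499), with RLE factors (adjusted p = 0.0472) and with DESeq2 (adjusted p = 0.0446). Igkc, the 1 B cell marker tested of 4 measured, was lower for BA+RT against BA (-3.69, SE 1.09, adjusted p = 0.0051) and was called in no other comparison. Summed B cell medians were 25.2 CPM in control (8.25 to 303), 21.1 in BA (5.69 to 749.6), 11.6 in RT (4.69 to 351) and 6.09 in BA+RT tumours (2.32 to 51.7). RT mouse 24 was also the RT tumour with the highest summed B cell markers, at 351 CPM, and the other 3 of those markers were too low to test. Their part in the Ccr6 values was not tested. Ccl20, the ligand of CCR6, was not on the panels.

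Ccl17 and Cx3cl1, neighbours on chromosome 8 with amplicons 29.6 kb apart, were the ligands lower after radiation. Ccl17, which draws CCR4-bearing T cells, had medians of 112 CPM in control tumours (69.5 to 144), 113 with BA (89.1 to 164), 78.8 with RT (64.7 to 104) and 86.9 with BA+RT (55.9 to 102). It fell by 0.52 with RT (SE 0.13, adjusted p = 0.0017), by 0.48 with BA+RT (SE 0.13, adjusted p = 0.0034) and by 0.54 when RT was added to BA (SE 0.13, adjusted p = 0.00089), but with reference-gene factors the first 2 were -0.31 each (adjusted p = 0.0691 and 0.069). Cx3cl1, the membrane-bound ligand fractalkine, had medians of 999 CPM (740.1 to 1488), 1016 (882 to 1330.5), 716 (582 to 989.7) and 752 (513 to 849.5) in the same order. It fell by 0.46 with RT (SE 0.12, adjusted p = 0.0018), by 0.43 with BA+RT (SE 0.12, adjusted p = 0.0028) and by 0.54 when RT was added to BA (SE 0.12, adjusted p = 0.00021), with no overlap between BA and BA+RT tumours. Its receptor gene Cx3cr1 was not on the panels. Epcam was lower with all 3 treatments, with medians of 11224 CPM in control, 9411 in BA, 6210 in RT and 6684 in BA+RT tumours, and its part in these values was not tested. Xcl1, the lymphotactin of NK and CD8 T cells, was called in no comparison, with medians of 2.28, 5.53, 5.36 and 4.26 CPM.

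The 11 chemokine genes that did not pass the expression filter were Ccl1, Ccl19, Ccl22, Ccl27b, Ccr4, Ccr8, Ccr10, Cxcl14, Cxcl15, Cxcr1 and Cxcr5. Their totals over the 36 libraries ran from 14 counts for Ccl22 to 251 for Ccl19, so differences among them were mostly not detectable at this depth. Ccr8, a receptor of tumour regulatory T cells, had medians of 0.97 CPM in control tumours (0 to 5.27), 4.42 with BA (2.26 to 7.19), 0.47 with RT (0 to 1.79) and 0.57 with BA+RT (0 to 1.49), and every BA tumour lay above every BA+RT tumour. A fit with no expression filter called it higher with BA (log2 fold change 1.52, adjusted p = 0.0179) and lower for BA+RT against BA (-2.64, adjusted p = 6.53e-05), from at most 13 counts a library. Of the 3 regulatory T cell markers tested (Ctla4, Foxp3, Il2ra) all were higher with BA, with summed medians of 34.2 CPM in control tumours (24.6 to 71.5), 109.7 with BA (74.6 to 178), 31.0 with RT (20.7 to 50.7) and 51.8 with BA+RT (34.2 to 130), and their part was not tested. The unfiltered fit also called Cxcl15 higher with BA (2.60, adjusted p = 0.0073) and with BA+RT (2.30, adjusted p = 0.0089), Cxcr1 lower with BA+RT (-1.41, adjusted p = 0.0262), Ccr4 lower for BA+RT against BA (-0.87, adjusted p = 0.0182) and Cxcl14 higher for BA+RT against RT (1.31, adjusted p = 0.049), each from at most 14 counts a library. Fitted changes of such genes depend on the prior count. The partners Ccl1 and Ccr8, Ccl22 and Ccr4, and Ccl27b and Ccr10 could therefore not be compared as pairs.

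The remaining chemokine genes on the panels, and the pathways known to induce the ligands, give the setting of these values. Of 10 other chemokine genes tested (Ccl2, Ccl3, Ccl4, Ccl5, Ccl7, Ccr7, Cxcl13, Cxcr2, Pf4, Ppbp), 7 ligands were higher with RT and none of the 10 lower. With BA Ccr7 was higher and Cxcl13 lower, and with BA+RT 6 were higher and 3 lower (Ccr7, Cxcl13, Cxcr2). Of 9 NF-κB route genes tested, Tnf and Myd88 were higher and Ikbkb and Ikbkg lower with RT. Tnf, an inducer of neutrophil attractants, rose by 1.20 (SE 0.16, adjusted p = 3.54e-07). The interleukin Il1a fell with BA by 1.05 (SE 0.17, adjusted p = 2.86e-05), and 1 route gene (Il1a) was lower and none higher with BA. Of 8 genes of the interferon-gamma route, none was higher with RT and 2 were lower (Ifngr1, Jak2), while with BA Ifngr1 was higher. Il1b of the NF-κB route had at most 1 count in any library and could not be compared.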

How the data were processed

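RNA from 36 tumours was read on 2 targeted amplicon panels (72 libraries), and the deposited table holds the authors' counts per amplicon, whole numbers whose totals differ between libraries. The deposited log2 values are named as regularized log (rlog) values. The submitters' processing notes name DESeq2, GRCm38 and GRCh38. Position columns are headed GRCh38, but every amplicon described here lies in the named mouse gene on GRCm38 (GENCODE M21). No aligner or counter, and no use of molecular identifiers, is given in the sources used here. The 10 genomic DNA control rows (2.32e-05% of counts) were left out, and there were 0 columns of other samples.

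Each panel was filtered by expression per group, scaled by TMM and fitted over all 4 groups with edgeR 4.0.16 (quasi-likelihood F test, robust, two-sided) in R 4.3.3. P-values were Benjamini-Hochberg adjusted over 1038 genes and called below 0.05. For a gene on both panels, the panel with the larger total was kept. The fit was tested on simulated data. Ranges with mean and SD are given for genes called with an absolute log2 fold change of at least 1 in a pairwise comparison, or called in the interaction, and other genes appear by range and count or as a ligand or receptor partner. The members and lists were chosen with earlier results of these data known. One tested receptor is counted but not reported by name here. Alternatives were other scalings, filters and samples, DESeq2 1.42.0 and limma 3.58.1 on the rlog values. Promoter windows were matched by symbol for 27 of 33 genes.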

Additional observations from a re-analysis of the deposited data

Results flagged for a closer look

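Cxcl10 in BA mouse 17 was 1.26 CPM, the lowest of its group, and its distance to the next BA tumour was 0.611 of the group's whole range on the log2 CPM scale. It was the 1 value of this kind on that scale among 40 groups of 9 mice examined, where chance gives about 1 in 20. On the CPM scale, looked at afterwards, it did not stand out, and 2 other values did: Cxcl5 in BA+RT mouse 45 at 428 CPM (0.682 of the range) and Ccr6 in RT mouse 24 at 13.7 CPM (0.609). BA mouse 17 was also the lowest BA tumour for Cxcl9 and Cxcl11.

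The BA effect on Cxcr4 was not the same with and without irradiation: the difference was -0.50 on the log2 scale in edgeR's interaction test (SE 0.14, adjusted p = 0.02). The BA effect was -0.71 in irradiated tumours, where all 9 BA+RT tumours lay below all RT tumours, and -0.21 in unirradiated tumours.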

How the results depend on the processing

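Of 3354 values recomputed over 72 results, 3253 kept their side of the threshold (counts: within 1.5 times), and none changed the sign of a called value. The 72 results are the counts of called genes and the changes of the 10 chemokine genes given with mean and SD. Other tested chemokine genes are not in this tally, and a value that stayed uncalled counts as kept. With no expression filter 5 chemokine genes were called with BA (3 higher, 2 lower) in place of 3, and 278 of all genes in place of 280. The interaction called 2 (1 higher, Cxcr3, and 1 lower, Cxcr4) in place of 1 with RLE factors, with reference-gene factors, with DESeq2, with limma on the rlog values, with TMM factors from all amplicons and without control mouse 8 and BA+RT mouse 40. The last 2 alternatives were added after seeing the data, and the last raised the genes called in the interaction from 86 to 151 (58 higher, 93 lower). The other 5, in the order given, called 99, 61, 111, 107 and 94 of all genes in the interaction. Leaving out 1 mouse at a time gave 2 to 4 chemokine genes for BA+RT against RT (4 without BA+RT mouse 45) and 1 to 2 for the interaction. The other ranges were 10 to 13 with RT, 2 to 4 with BA, 12 to 15 with BA+RT and 13 to 17 for BA+RT against BA. Over all genes the same fits called 399 to 483 with RT, 242 to 349 with BA and 458 to 532 with BA+RT. They called 514 to 586 for BA+RT against BA, 76 to 153 for BA+RT against RT and 71 to 106 for the interaction. Of 48 called gene and comparison pairs, 14 lost the call under at least 1 alternative, each named with its gene. Limma on the rlog values, which are shrunk for low counts, gave smaller changes for Ccr6, Ccr9, Cxcl3, Cxcl12 and Cxcr6 (for Ccr9 with RT -0.23 in place of -1.37) and kept those calls. The cause of the other changes was not tested. Of the genes tested, Ccr3, Ccr6, Ccr9 and Xcl1 had at most 38 counts in a library. No paired analysis was possible because mouse numbers are not shared between groups.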
